A study of Drosophila melanogaster with 8 samples.

Results

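Chemoreceptor genes were measured in Drosophila melanogaster S2 cells, a cultured line with hemocyte-like properties, on 3' expression arrays. They were chosen as every gene whose symbol begins with Or, Gr or Ir followed by a digit and that has a probe set annotated to that gene alone. The rule found 127 genes on 134 probe sets, of 11009 genes and 16718 probe sets in all. They comprised 41 odorant receptors (Or), 45 gustatory receptors (Gr) and 41 ionotropic receptors (Ir).

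The study asked how knockdown of DmSTING (the gene Sting) affects the response to the bacterial second messenger c-di-GMP. Cells received dsRNA in Cellfectin II, and 72 h later a second transfection, with RNA taken after another 24 h. The 4 groups combined DmSTING or scrambled dsRNA with c-di-GMP or Cellfectin alone (mock), with 2 arrays each. All groups therefore share the dsRNA transfection, the second lipid exposure and the S2 background. The groups follow the sample titles, because in 4 of the 8 samples the genotype field names the other dsRNA. The labels do not say whether the 2 arrays of a group came from separate cultures, and the p-values reflect array-to-array spread that could be technical.

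Odorant receptors form cation channels with the co-receptor Orco in the dendrites of olfactory neurons, where they detect volatile compounds. Gustatory receptors serve taste neurons and detect sugars, bitter compounds and carbon dioxide, while ionotropic receptors derive from glutamate receptor relatives and detect acids, amines, temperature and humidity. Each neuron usually carries few of these receptors, and the genes are not known for a role in cultured hemocyte-like cells.

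The deposited values are log2 ratios of each probe set to its own median over the 8 arrays, so no level remains in them. Whether any receptor was transcribed, and whether the hemocyte or neuron markers were present, cannot be read from these values, and the receptors are described by their differences between arrays. In such bulk RNA, a change in the share of cells with a transcript and a change in RNA per cell cannot be told apart. The knockdown target Sting differed by -1.31 (SE 0.07, adjusted p = 0.00281) with c-di-GMP and by -1.29 (SE 0.07, adjusted p = 0.00320) with mock, DmSTING minus scrambled dsRNA, lower in the samples whose titles name DmSTING dsRNA. Calls below are limma contrasts with a Benjamini-Hochberg adjusted p under 0.05 over all 11009 genes.

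Single receptors varied in both directions while their median stayed near 0, the value on which each probe set had been centred. The median over the receptors lay between -0.012 and 0.015 on all 8 arrays. Relative to the median of all genes on the same array, the receptor median was 0.042 and 0.023 higher on the scrambled c-di-GMP arrays, and between -0.015 and 0.011 on the other 6. Of the 127 receptors, 46 (36.2%) remained within 0.25 of their median on every array, against 53.2% of all genes. The range over the 8 arrays had a median of 0.46 for receptors and 0.39 for all genes.

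**Figure D1:**
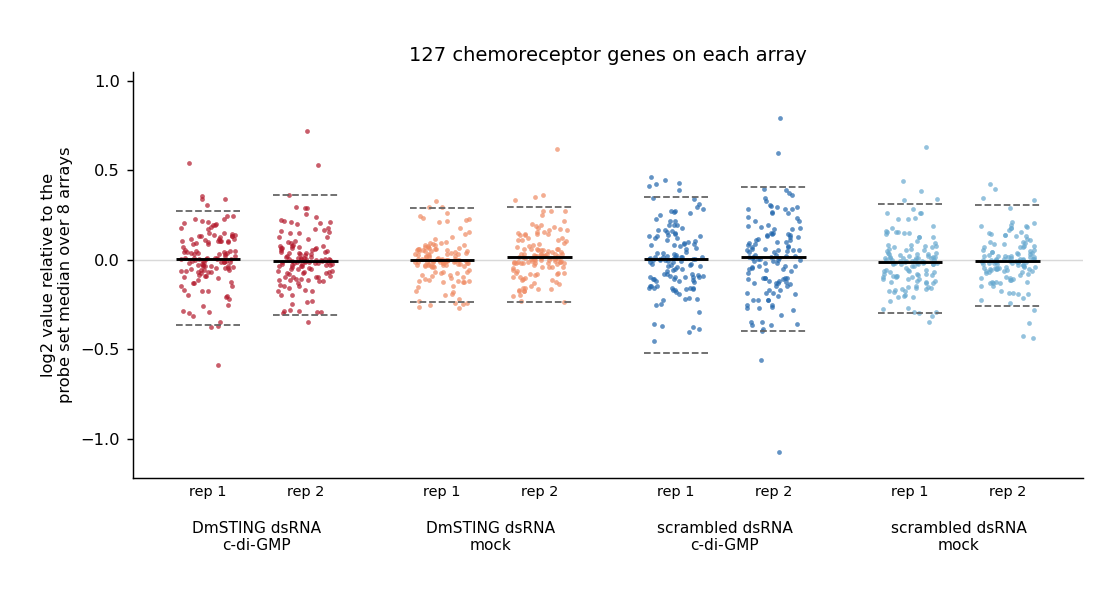
Each point is 1 of 127 chemoreceptor genes on 1 array, as its log2 value relative to the probe set median over 8 arrays; black bars are receptor medians and dashed lines bound the central 95% of all genes on that array. Receptor medians lie between -0.012 and 0.015, and the lowest point is Gr63a at -1.07 on the second scrambled c-di-GMP array.

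A span of more than 1 log2 unit over the 8 arrays was seen in 3 receptors (2.36%) and in 2.21% of all genes. Gr63a, a subunit of the carbon dioxide receptor, spanned 1.71, Gr94a, a gustatory receptor, spanned 1.07, and Ir68a, which serves moist-air sensing, spanned 1.06. At the other end, Gr39a, which is expressed in bitter-sensing neurons, spanned 0.17, but as a mean of 3 probe sets that spanned 0.58, 0.53 and 0.41 on their own. The co-receptor Ir25a, with 1 probe set, spanned 0.20. More receptors lay beyond 0.5 from their median on the second scrambled c-di-GMP array (4 of 127) than on any other array (0 to 2). That is 3.15% of the receptors, against 2.38% of all genes on that array. The first scrambled c-di-GMP array had the highest share of all genes beyond 0.5, at 3.81%, and none of the receptors.

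The 2 arrays of a group differed more in the receptors than in genes as a whole. The SD over genes of the difference between replicates was 0.222 for receptors and 0.196 for all genes with DmSTING dsRNA and c-di-GMP, and 0.173 and 0.119 with DmSTING dsRNA and mock. With scrambled dsRNA it was 0.307 for receptors and 0.233 for all genes with c-di-GMP, and 0.205 and 0.166 with mock. Other sensory and cuticle families were also above all genes in that last c-di-GMP group: the 39 odorant binding proteins gave 0.278, the 23 pickpocket channels 0.343 and the 59 Cpr cuticular proteins 0.273. Ribosomal and proteasome families had less spread, at 0.105 for the 69 mitochondrial ribosomal proteins and 0.127 for the 37 proteasome subunits in the same group. No test was made of these differences between families.

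**Figure D2:**
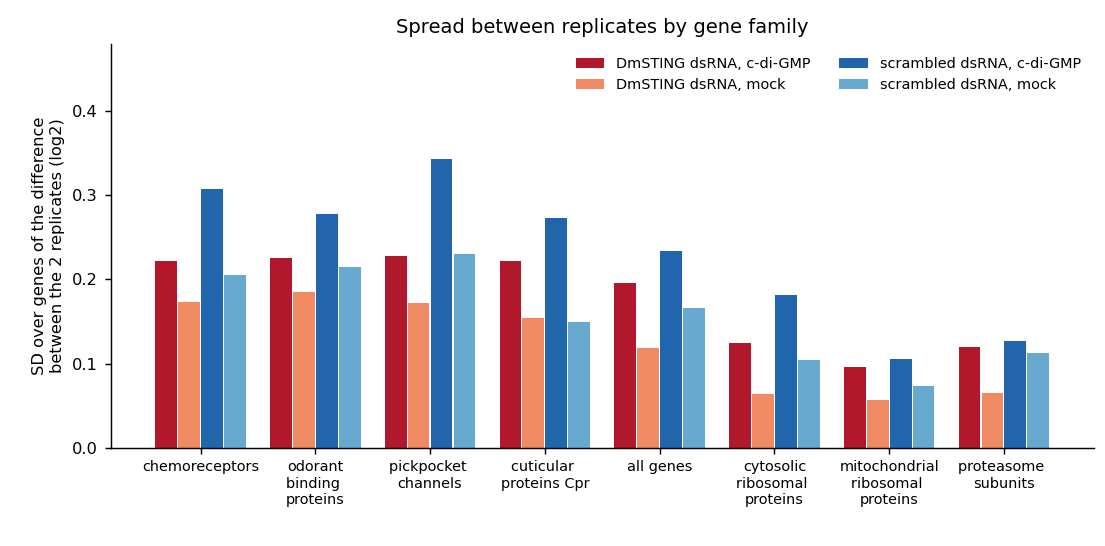
Bars give the SD over genes of the log2 difference between the 2 replicates of each group, from 0, for the chemoreceptors, 6 other gene families and all genes. The scrambled c-di-GMP bar is the highest in every family, and it reaches 0.307 for the chemoreceptors.

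The first question was how many receptors moved with c-di-GMP. With DmSTING dsRNA, 2 of 127 receptors passed the test (1.57%), 1 higher and 1 lower with c-di-GMP than with mock, where 7.44% of all genes were called (3.27% higher and 4.17% lower). With scrambled dsRNA, 4 of 127 passed (3.15%), 2 higher and 2 lower, where 12.1% of all genes were called (4.14% higher and 7.93% lower). No odorant receptor was called in either arm. At an unadjusted p under 0.05 there were 8 receptors (6.30%) against 21.7% of all genes with DmSTING dsRNA, and 15 (11.8%) against 28.4% with scrambled dsRNA. The median receptor change was -0.0020 with DmSTING dsRNA and 0.0088 with scrambled dsRNA, beside -0.017 and -0.040 over all genes. The SD of the receptor changes was 0.169 with DmSTING dsRNA and 0.221 with scrambled dsRNA, beside 0.217 and 0.260 over all genes.

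The gustatory receptor Gr94a rose with c-di-GMP in both arms. With DmSTING dsRNA it read 0.54 and 0.72 with c-di-GMP, against -0.27 and -0.20 with mock. With scrambled dsRNA it read 0.20 and 0.60 with c-di-GMP, against -0.31 and -0.35 with mock. All 4 c-di-GMP arrays were above all 4 mock arrays. The change was 0.86 (SE 0.13, adjusted p = 0.0127) with DmSTING dsRNA, a 1.82-fold difference, and 0.73 (SE 0.13, adjusted p = 0.0165) with scrambled dsRNA, a 1.66-fold difference. In the RefSeq gene table (Release 6 plus ISO1 MT assembly), Gr94a lies inside the span of p53, the tumour suppressor homologue. p53 differed by 0.37 (SE 0.08, adjusted p = 0.0349) with DmSTING dsRNA and by 0.28 (SE 0.08, adjusted p = 0.0623) with scrambled dsRNA. Whether p53 transcripts reach the Gr94a probe set was not tested.

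The ionotropic receptor Ir76a, an amine receptor of olfactory neurons, fell with c-di-GMP in both arms. With DmSTING dsRNA it read -0.35 and -0.30 with c-di-GMP, against 0.23 and 0.27 with mock. With scrambled dsRNA it read -0.22 and -0.13 with c-di-GMP, against 0.13 and 0.34 with mock. The c-di-GMP arrays were all below the mock arrays. The change was -0.57 (SE 0.09, adjusted p = 0.0127) with DmSTING dsRNA and -0.41 (SE 0.09, adjusted p = 0.0277) with scrambled dsRNA. Ir76a has the 1 receptor probe set whose type marks possible matches to more than 1 gene, and it overlaps CG14102 in the RefSeq table. CG14102 differed by -0.28 (adjusted p = 0.0942) with DmSTING dsRNA and by -0.23 (adjusted p = 0.111) with scrambled dsRNA, and its part in the Ir76a result was not tested.

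The other 2 calls were made with scrambled dsRNA. Gr92a, a gustatory receptor, read 0.41 and 0.19 with c-di-GMP, against -0.13 and -0.13 with mock, a rise of 0.43 (SE 0.09, adjusted p = 0.0271). With DmSTING dsRNA it read 0.11 and 0.13 with c-di-GMP, against -0.25 and -0.11 with mock (0.30, SE 0.09, adjusted p = 0.103). The groups did not overlap in either arm, and the direction was the same.

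Gr59e, a gustatory receptor, fell with c-di-GMP after scrambled dsRNA. It read -0.11 and -0.18 with c-di-GMP, against 0.26 and 0.42 with mock (-0.49, SE 0.08, adjusted p = 0.0138). With DmSTING dsRNA it read 0.00 and 0.10 with c-di-GMP, against -0.00 and -0.08 with mock (0.09, SE 0.08, adjusted p = 0.615). The scrambled mock arrays were the highest of the 8. The channel gene ppk3 also had its highest values on those arrays, but it was chosen after its values were seen, so the match carries no weight. It read -0.03 and -0.05 with c-di-GMP, against 0.43 and 0.35 with mock after scrambled dsRNA (-0.43, adjusted p = 0.0292). The receptor Gr59f, next to Gr59e by name, read -0.22 and 0.03 with c-di-GMP, against 0.07 and -0.24 with mock (-0.01, adjusted p = 0.969), and did not share that pattern.

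**Figure D3:**
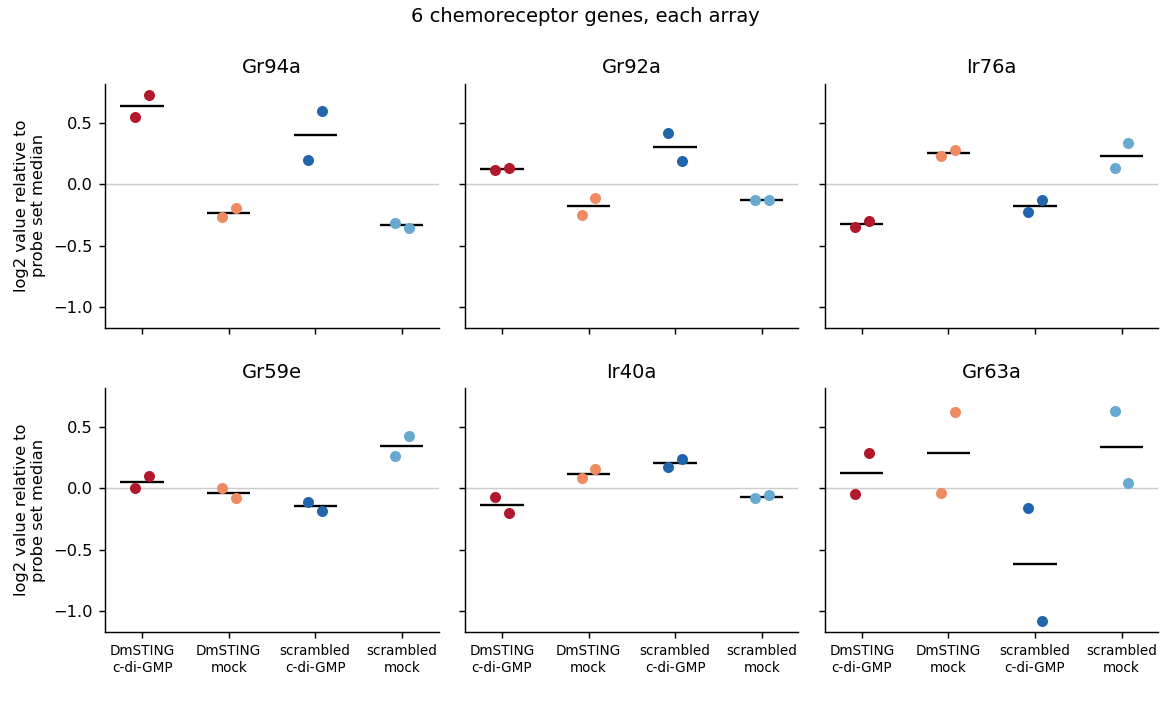
Points are the 8 arrays for the 4 called receptors and for Ir40a and Gr63a, as log2 values relative to the probe set median, with bars at the mean of 2 arrays. Gr94a is above 0 on all 4 c-di-GMP arrays and below 0 on all 4 mock arrays, Ir76a shows the opposite, and the Gr63a arrays of each group lie far apart.

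The calls depended on which arrays entered the fit. When the fit held only the 4 scrambled arrays, none of the 127 receptors was called in that arm. With only the 4 DmSTING arrays, Gr94a (adjusted p = 0.0165) and Ir76a (adjusted p = 0.0182) were still called in limma. The number of receptors called in the scrambled arm also changed in both directions when 1 array was left out, which leaves a group with 1 array. Gr59e lost its call only without scrambled mock replicate 2, and Gr94a without either scrambled mock array, among the arrays left out in turn. Gr92a lost its call without either mock array of either dsRNA, and without scrambled c-di-GMP replicate 1. Ir76a lost its call in that arm without either DmSTING mock array, scrambled mock replicate 2 or the c-di-GMP replicate 1 of the same dsRNA. In the DmSTING arm Ir76a lost its call without any 1 of the 4 DmSTING arrays, and Gr94a without either mock array or c-di-GMP replicate 2. Any receptor called in that arm without c-di-GMP replicate 2 was therefore neither Gr94a nor Ir76a.

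Just inside the threshold with scrambled dsRNA were Gr92a at 0.43 and Ir76a at -0.41. Just outside it were Ir40a, a humidity receptor, at 0.28 (adjusted p = 0.0522) and the bitter receptor Gr98b at 0.36 (adjusted p = 0.0591). With DmSTING dsRNA the receptors just outside were Ir40a at -0.25 (adjusted p = 0.0870) and the sugar receptor Gr64f at -0.30 (adjusted p = 0.0949). The probe sets of Ir40a disagreed after scrambled dsRNA: 1 changed by 0.0031 and the other by 0.55. In a limma fit of single probe sets, the other was called (adjusted p = 0.00972) and the first was not (adjusted p = 0.991). That Ir40a was not called as a gene therefore rests on averaging its probe sets.

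The largest receptor difference in the scrambled arm was not called. Gr63a read -0.16 and -1.07 with c-di-GMP, against 0.63 and 0.04 with mock (-0.95, SE 0.35, adjusted p = 0.127). The groups did not overlap, but the replicates of each were 0.92 and 0.59 apart. Its partner Gr21a, the other carbon dioxide receptor subunit, read 0.16 and 0.30 with c-di-GMP, against -0.13 and 0.14 with mock (0.22), so the differences of the pair had opposite signs.

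By role, Ir76a was the only called gene of the listed groups, as 1 of the 6 measured acid and amine receptors in each arm, where 7.44% of all genes were called with DmSTING dsRNA and 12.1% with scrambled dsRNA. None of the 4 co-receptors (Orco, which is outside the rule, Ir8a, Ir25a and Ir76b) was called in any contrast. Orco changed by -0.0042 with DmSTING dsRNA and by -0.18 with scrambled dsRNA. The 5 sugar receptors measured had changes between -0.34 and 0.10 with DmSTING dsRNA and between -0.51 and 0.17 with scrambled dsRNA, with Gr61a lowest in both. The 7 bitter receptors lay between -0.14 and 0.14 with DmSTING dsRNA and between -0.13 and 0.36 with scrambled dsRNA. The 9 food odour receptors lay between -0.14 and 0.08 with DmSTING dsRNA and between -0.23 and 0.11 with scrambled dsRNA. The 4 pheromone receptors lay between 0.04 and 0.17 with DmSTING dsRNA and between -0.24 and 0.21 with scrambled dsRNA. Among the 5 temperature and humidity receptors, Ir68a was highest in both arms, at 0.28 and 0.60, and was not called.

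The responses of the receptors in the 2 arms, which share no sample, were less alike than those of all genes. Over 127 receptors the changes in the arms had Pearson r = 0.39 and Spearman rho = 0.21, as a description across genes, beside 0.73 and 0.63 over 11009 genes. Without Gr94a and Ir76a, r over the remaining 125 was 0.26. The sign was the same in both arms for 69 receptors (54.3%) and for 71.9% of all genes. All 4 c-di-GMP arrays lay apart from all 4 mock arrays for 8 receptors (6.30%), against 25.1% of all genes. Gr92a, Gr94a, Ir7g, Ir94e and Or2a were above, and Gr61a, Ir76a and Or43a below. Taken arm by arm, the groups lay apart in both arms in the same direction for 10 receptors (7.87%), against 32.7% of all genes. They lay apart in opposite directions for 11 (8.66%), against 2.97%. With 2 arrays against 2, groups often lie apart without any response, and these shares were not tested.

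**Figure D4:**
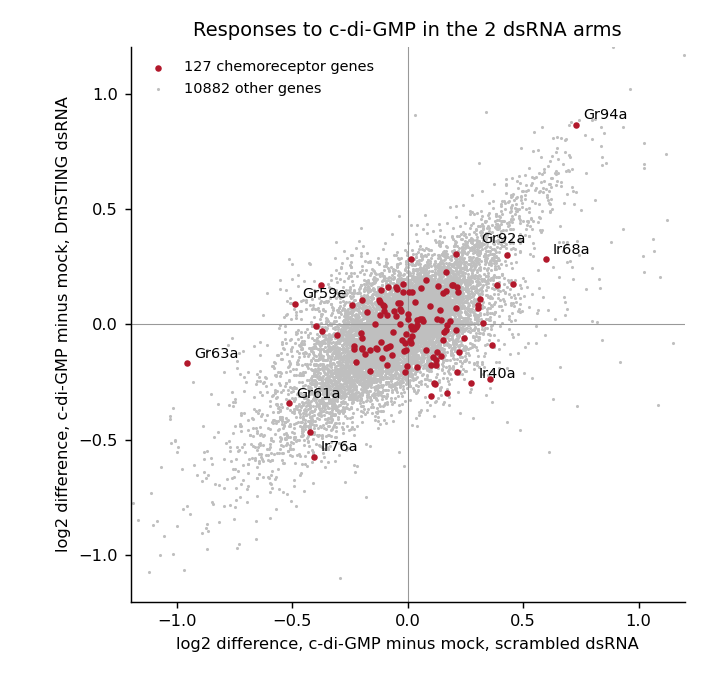
Each point is a gene, with its log2 difference c-di-GMP minus mock after scrambled dsRNA on the x axis and after DmSTING dsRNA on the y axis; red points are the 127 chemoreceptors, grey points the others, and 35 genes lie outside the axes, which end at 1.2. Most receptors sit near the centre without a clear slope (r = 0.39), while Gr94a and Ir76a lie along the diagonal of the other genes.

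The difference of the 2 responses, DmSTING arm minus scrambled arm, called no receptor and no gene (0.0%) in limma. At an unadjusted p under 0.05 there were 9 receptors (7.09%), against 4.91% of all genes. The SD of these differences was 0.220 over the receptors and 0.182 over all genes. The highest were Gr63a at 0.79, Gr59e at 0.58 and Ir52b at 0.55. The lowest were Or63a at -0.59, Ir40a at -0.53 and Gr64f at -0.47. Every named value had an adjusted p of 0.988 or 0.997.

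Knockdown alone called no receptor. With mock, where 0.00908% of all genes were called, 8 receptors (6.30%) had an unadjusted p under 0.05, against 3.22% of all genes. The receptor differences, DmSTING minus scrambled, had a median of 0.020 and an SD of 0.132, beside 0.011 and 0.111 over all genes. Ir31a, an acid receptor, was highest at 0.42 and Gr59e lowest at -0.38, both with adjusted p = 0.996. This comparison shares the scrambled mock arrays with the scrambled arm.

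With c-di-GMP, where 0.00908% of all genes were called, 17 receptors (13.4%) had an unadjusted p under 0.05, against 13.7% of all genes. The differences had a median of 0.0041 and an SD of 0.177, beside 0.032 and 0.171. Gr63a was highest at 0.74 (adjusted p = 0.403) and Or63a, an odorant receptor, lowest at -0.52 (adjusted p = 0.351). The comparison shares the scrambled c-di-GMP arrays with the scrambled arm. Across treatments, all 4 DmSTING arrays lay apart from all 4 scrambled arrays for 5 receptors (3.94%), against 4.61% of all genes. These were Gr93d, Gr98a, Ir84a, Or67a and Or88a, and all were below, while over all genes 329 were above and 179 below. The share of receptors was close to that of all genes, and the direction of so few receptors was not tested.

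The receptors give a scale for the changes of other genes, but it is not matched to those genes in spread. The median SE of a c-di-GMP change was 0.124 for receptors and 0.093 for other genes. The receptors' 95th percentile of absolute change with c-di-GMP was 0.30 with DmSTING dsRNA and 0.43 with scrambled dsRNA. By construction, 7 of the 127 receptors lay beyond it in each arm. Of all 10882 other genes, 13.1% lay beyond it with DmSTING dsRNA and 8.51% with scrambled dsRNA. Whether a called gene below it is background was not tested. Calling itself favours large changes: of the 817 other genes called with DmSTING dsRNA, 782 (95.7%) changed by more than that, and 35 by less. Of the 1325 other genes called with scrambled dsRNA, 709 (53.5%) changed by more and 616 by less. Beyond the largest receptor were 37 called genes with DmSTING dsRNA (past Gr94a, 0.86) and 53 with scrambled dsRNA (past Gr63a, 0.95). The number of all genes called also rested on single arrays, and only its largest falls are given here. With DmSTING dsRNA the number rose without either scrambled c-di-GMP array. With scrambled dsRNA the number rose without scrambled c-di-GMP replicate 2. With DmSTING dsRNA it was 0 without either DmSTING mock array, 300 without DmSTING c-di-GMP replicate 1 and 162 without replicate 2, in place of 819. With scrambled dsRNA it was 426 without scrambled mock replicate 1, 221 without replicate 2 and 584 without either DmSTING mock array, in place of 1329. For the difference of responses, the receptors' 95th percentile was 0.44, and 2.51% of other genes lay beyond it. For the knockdown it was 0.32 with c-di-GMP and 0.27 with mock, with 5.03% and 2.22% of other genes beyond.

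**Figure D5:**
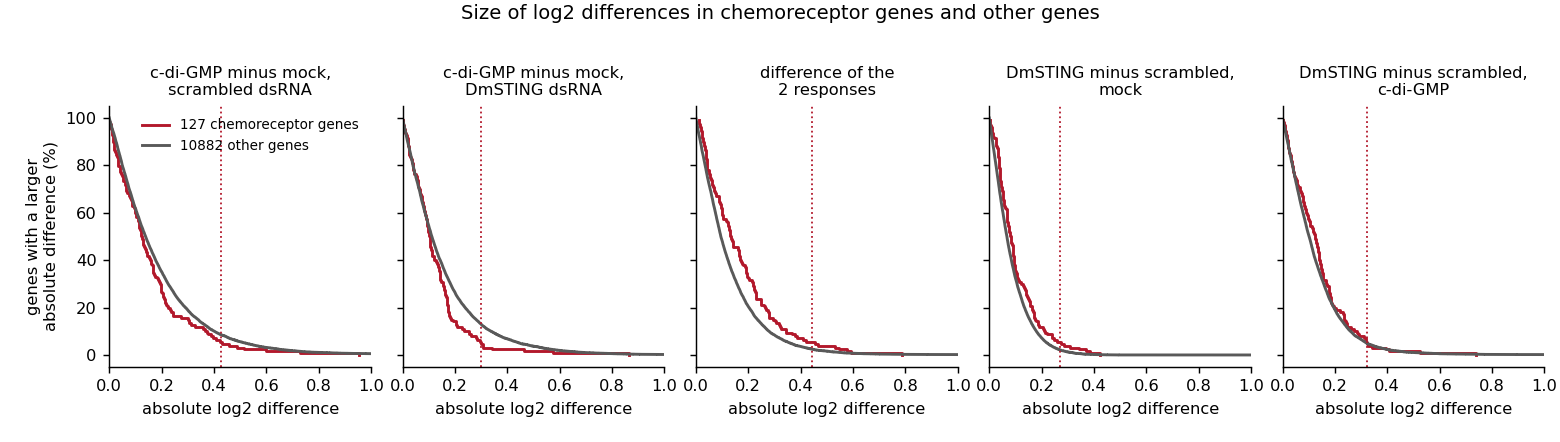
Curves give the percentage of genes whose absolute log2 difference exceeds the value on the x axis, for 127 chemoreceptors (red) and 10882 other genes (grey) in 5 contrasts; dotted lines mark the receptors' 95th percentile, and larger differences than 1 are not drawn. At the dotted line, red lies below grey for the c-di-GMP changes of both arms and above it for the difference of responses. Further out, where red rests on very few receptors, the curves cross.

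Overlap with other genes was looked up in the same RefSeq table. Of the 127 receptors, 31 were overlapped by a protein-coding gene that is no receptor and 96 were not. With c-di-GMP, 2 of the 31 (6.45%) and 2 of the 96 (2.08%) were called in at least 1 arm, where 13.5% of all genes were. The difference between these shares was not tested. The table lists 186 receptor genes, of which 59 had no probe set of their own here and were not used. The 4 probe sets that name several genes were left out of the test. Of these, the set for Or19a and Or19b read -0.61 and -0.39 with c-di-GMP, against -0.13 and 0.05 with mock after scrambled dsRNA.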

How the data were processed

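Total RNA of 8 samples was labelled with biotin for Affymetrix 3' arrays, per the labels' protocols. The deposited series table holds the authors' log2 values centred so that every probe set has a median of 0 across arrays. Its log base is unstated and was taken as 2, and the sources used here do not give the background correction or the summarisation. Genes were named from GEO's platform annotation: 12339 probe sets had 1 gene, 367 several, and 3888 none. Probe sets of a gene were averaged, and the 11009 genes were fitted with limma 3.58.1 in R 4.3.3 (4 group means, 4 residual degrees of freedom, eBayes), with no filter on low values. Array number limits the precision. Tested on simulated data for the scrambled c-di-GMP contrast over 11009 genes, the fit recovered 52% of changes of 0.5 and 84% of changes of 1. It made 9 false calls. The simulation changed far fewer genes than were called in the data, so recovery in the data can differ. The members, the lists and the rule for named genes were chosen with earlier results of these data known. Named genes were the 5 highest and 5 lowest receptors per contrast, every called receptor, and the 2 nearest each side of the threshold. Alternatives were 3 scalings, probe sets tested singly, ambiguous probe sets left out, robust eBayes, only the arrays compared, a replicate block, and each array left out.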

Additional observations from a re-analysis of the deposited data

Results flagged for a closer look

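In 11 receptors (8.66%, against 2.97% of all genes) the c-di-GMP and mock arrays did not overlap in either arm and lay in opposite directions. The difference of responses, DmSTING arm minus scrambled arm, was 0.58 for Gr59e, 0.55 for Ir52b, 0.26 for Or65b, 0.23 for Gr98a and 0.22 for Or59c. It was -0.53 for Ir40a, -0.47 for Gr64f, -0.42 for Ir31a, -0.30 for Gr93d, -0.28 for Ir87a and -0.23 for Ir41a. The difference itself was tested with limma, and all 11 had an adjusted p of 0.988. The values of Ir40a and Ir41a are means of several probe sets, which did not all share the pattern. The difference was -0.25 and -0.81 in the probe sets of Ir40a, and -0.33, -0.16 and -0.20 in those of Ir41a. For each gene, c-di-GMP and mock arrays overlapped in both arms in the probe set with the smallest of these differences. In the same direction in both arms, the arrays did not overlap for 10 receptors (7.87%), against 32.7% of all genes. With 2 arrays against 2, groups often lie apart without any response, in opposite directions as readily as in the same. The 11 receptors are therefore not shown to respond differently in the arms.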

How the results depend on the processing

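With only the 4 arrays compared, the scrambled arm had 0 called receptors in place of 4, and all genes 141 in place of 1329. In the DmSTING arm, 4 receptors were called after quantile normalization and 1 without ambiguous probe sets, in place of 2. Over all genes these settings called 1239 of 11009 and 643 of 10020, in place of 819. The median receptor change in the scrambled arm was 0.048 after quantile normalization, 0.037 after subtracting the median of all genes and -0.0095 after subtracting that of the receptors. Subtracting the receptor median makes it 0 on every array, so a median receptor change near 0 is built into that setting. The knockdown median was 0.0054 with mock after subtracting the receptor median, and with c-di-GMP -0.016 after quantile normalization and -0.016 after subtracting the median of all genes. After quantile normalization the SD was 0.193 in the DmSTING arm and 0.155 for the knockdown with mock. The causes were not tested. Leaving out 1 array gave 0 to 11 called receptors in the scrambled arm, 0 to 3 in the DmSTING arm and 0 in the other contrasts. The medians ranged from 0.0024 to 0.012 (scrambled arm), -0.0089 to 0.037 (DmSTING arm), -0.038 to 0.0060 (difference of responses), 0.014 to 0.035 (knockdown, mock) and -0.012 to 0.016 (knockdown, c-di-GMP). The SDs ranged, in the same order, from 0.221 to 0.296, 0.169 to 0.208, 0.234 to 0.288, 0.132 to 0.182 and 0.177 to 0.251. With the replicate number as a block, 6 receptors were called in the scrambled arm, 3 in the DmSTING arm and 0 elsewhere. Same-numbered arrays had deviations correlated at 0.0093 to 0.289 over all genes, highest between the c-di-GMP groups. Over the receptors the correlations lay between -0.149 and 0.038, with 0.030 between the c-di-GMP groups. The labels do not say whether same-numbered arrays share a culture or a batch. Of all called genes in the scrambled arm, 34.3% were higher as deposited and 48.2% after quantile normalization. Of 412 values of named receptors under the other alternatives, 400 kept direction and side of the threshold. Of the rest, 4 lost it, 8 gained it and 0 reversed. Most of the 412 were not called in the main fit and could not lose a call. The 400 therefore do not measure how stable the calls were. When arrays were left out, 0 reversed, but every call of the main fit was lost in at least 1 such fit.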
